A study of Mus musculus with 5 samples.

Results

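Gata6 binding was described at the loci of 6 genes for enzymes and a cofactor of pancreatic fat digestion. These were Cel, Pnlip, Pnliprp1, Pnliprp2, Clps and Pla2g1b. Their loci were taken as 4 fixed windows of the mouse genome build mm9, not checked against a gene annotation, and a peak of the deposited list was a member when its midpoint fell inside a window. By this rule 31 of the 7737 peaks of the list were members, and no window was without a peak. The loci were chosen by earlier results on the same peak positions, so counts and widths at these loci are given as descriptions, with no test.

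The list came from chromatin immunoprecipitation with an antibody against Gata6 followed by sequencing (ChIP-seq) of pancreas from wild-type C57BL/6 mice. Of the 4 Gata6 libraries, 2 were made at an age of 5 weeks and 2 at 14 weeks, and input DNA of the replicates was pooled into 1 further library. All libraries were from whole pancreas, in which acinar, duct, islet and other cells are mixed. The list is a single set of positions for the whole series, with no height, score or value per library, so spread between animals, sequencing depth and a difference between ages could not be computed.

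Gata6 is a zinc-finger transcription factor of the GATA family, which takes part in the differentiation and upkeep of acinar cells, the enzyme-secreting cells of the exocrine pancreas. Acinar cells store digestive enzymes in granules and secrete them for digestion in the gut. Among the enzymes of fat digestion, pancreatic lipase (Pnlip) cleaves triglycerides and needs colipase (Clps), a small protein that anchors it to fat droplets covered by bile salts. The lipase-related proteins Pnliprp1 and Pnliprp2 belong to the same family. Pnliprp2 also acts on galactolipids and phospholipids, whereas Pnliprp1 has little known lipase activity. Carboxyl ester lipase (Cel) is activated by bile salts and cleaves cholesterol esters and many other esters, and the secreted phospholipase A2 of group IB (Pla2g1b) releases a fatty acid from phospholipids.

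In the RefSeq gene order (assembly GRCm38.p6), the neighbouring protein-coding genes are Ralgds and Gtf3c5 for Cel, Clpsl2 and Lhfpl5 for Clps, and Msi1 and Sirt4 for Pla2g1b. Pnlip, Pnliprp1 and Pnliprp2 follow each other directly, with Ccdc172 before Pnlip and 1700019N19Rik after Pnliprp2. A peak in a window is therefore named by the window, which may hold parts of neighbouring genes too. Whether a peak lay at a promoter, in an exon, in an intron or between genes was not determined here, since no gene annotation of mm9 was used.

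GATA factors recognise the letters GATA, preferably with A or T before and A or G after them. RefSeq promoter windows (GRCm38.p6, 250 bases before to 50 after the gene start) were found for 5 of the 6 genes, all except Clps. They were searched on both strands for AGATAA and AGATAG and TGATAA and TGATAG, and for the bare letters GATA. Sites of different motifs may share bases, and each match was counted. Cel and Pnlip were the 2 genes with a match to a motif of 6 letters, and their 250 bases before the start are shown to set these letters out, 5′ to 3′ on the strand of the gene, with the motifs in capitals. The stretch before Cel is chr2:28563404-28563653 on the minus strand, and that before Pnlip is chr19:58670115-58670364 on the plus strand, both in GRCm38.p6. These positions cannot be set against the mm9 positions of the peaks.
Cel: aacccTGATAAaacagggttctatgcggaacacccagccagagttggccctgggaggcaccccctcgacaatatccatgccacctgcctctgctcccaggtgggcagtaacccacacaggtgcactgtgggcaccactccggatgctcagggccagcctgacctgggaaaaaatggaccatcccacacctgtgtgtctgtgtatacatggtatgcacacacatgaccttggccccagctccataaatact
Pnlip: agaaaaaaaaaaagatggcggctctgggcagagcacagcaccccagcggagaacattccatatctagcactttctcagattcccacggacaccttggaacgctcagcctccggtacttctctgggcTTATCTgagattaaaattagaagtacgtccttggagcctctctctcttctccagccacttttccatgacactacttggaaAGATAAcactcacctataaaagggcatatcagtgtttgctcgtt

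The Cel promoter held 1 match, TGATAA, with GATA starting 244 bases before the start. The Pnlip promoter held 2 matches to AGATAA, 1 on the opposite strand 123 bases before the start and 1 on the strand of the gene 43 bases before it. At least 1 such motif was present in 29.8% of the 32851 promoters in the table, and at least 2 in 7.77%, so 2 of 5 genes with a match is near what the table as a whole holds. The 3 other promoters held GATA letters only outside these motifs, shown here with up to 8 bases on each side and with GATA, or TATC for the opposite strand, in capitals.
Pnliprp1, 43 bases after the start: gtccaaacGATAagg
Pnliprp2, 85 bases before the start: ccactgggGATAgccccacc
Pla2g1b, 229 bases before the start: tttaaggcTATCctcagcta
Pla2g1b, 25 bases after the start: gttcccccGATAgaccaagg
GATA on either strand was found in all 5 promoters and in 57.9% of all promoters in the table. The Pnlip promoter held 4 copies, the most of the 5, and 2 of these lay in its AGATAA matches. At least 4 copies were held by 4.99% of all promoters, a share for a single promoter and not for the highest of 5. A match shows only that the letters are present in the window.

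The window of Cel (chromosome 2, 28380001 to 28450000 in mm9, band qA3, 70 kb) held 4 peaks, which formed a nearly continuous block. From low to high coordinate they measured 1810 bp (28409567 to 28411376), 1025 bp (28411503 to 28412527), 1146 bp (28413358 to 28414503) and 6367 bp (28414568 to 28420934). The last of them was the widest of all 7737 peaks. The gaps between their edges were 126, 830 and 64 bp, and the block as a whole spanned 11.4 kb, of which 91.0% was covered by peaks. When peaks with edges within 1 kb were joined across the whole list, this block was the second longest of 7364 regions, after a region of 15032 bp on chromosome 15 that was made of 9 peaks. For scale, the RefSeq gene model of Cel is 7585 bp long. Outside the block the window was empty on both sides. The nearest peaks beyond it lay 6.93 kb before the window and 7.81 kb after it and measured 840 and 596 bp.

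The window of Pnlip, Pnliprp1 and Pnliprp2 (chromosome 19, 58720001 to 58880000, band qD2, 160 kb) held 14 peaks, the most of the 4 windows. They were spread over 113 kb in 2 groups of 5, a pair and 2 lone peaks, where a group joins peaks whose midpoints follow each other within 10 kb. The first group of 5 lay at 58741011 to 58754728, with widths of 1268, 1165, 470, 722 and 780 bp in order of position. A lone peak of 662 bp followed at 58773130 to 58773791, after a gap of 18.4 kb between edges. After a further 28.3 kb came the pair at 58802068 to 58805025, made of the widest peak of this window, 1667 bp, and a peak of 903 bp that began 388 bp after it. The second group of 5 lay at 58819086 to 58837170, with widths of 669, 554, 598, 731 and 1304 bp. A lone peak of 891 bp at 58853277 to 58854167 ended the series, and the next peak on the chromosome had its midpoint 613 kb beyond the window. Of the 14 peaks, 4 were wider than 1 kb.

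The window of Clps (chromosome 17, 28660001 to 28730000, band qA3.3, 70 kb) held 6 peaks, and all 6 were wider than the median of the list, 728 bp. At its centre lay a group of 3 at 28693502 to 28699311 with widths of 2635, 798 and 1140 bp. The first of these 3 ranked 35 by width among all 7737 peaks. The other members were lone peaks of 1669 bp at 28659187 to 28660855, 969 bp at 28717092 to 28718060 and 977 bp at 28728222 to 28729198. Both outer members lay close to the limit of the window. The midpoint of the 1669 bp peak was 0.0205 kb inside it and that of the 977 bp peak 1.29 kb inside, whereas the nearest peaks outside, of 615 and 559 bp, had midpoints 10.1 kb before and 9.11 kb after the window. With the window narrowed by 1 kb on both sides the count was 5. In the other 3 windows the outermost members lay between 9.93 and 32.2 kb inside the limits.

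The window of Pla2g1b (chromosome 5, 115880001 to 115950000, band qF, 70 kb) held 7 peaks of ordinary width for the list. Their widths ran from 576 to 885 bp, all inside the interquartile range of the list (533 to 996 bp), and 3 of the 7 were wider than its median. A pair of 700 and 818 bp lay at 115897084 to 115898851 with 250 bp between the edges. A group of 4 followed at 115908784 to 115926262, with widths of 868, 576, 719 and 885 bp, in which the middle peaks were 600 bp apart. A lone peak of 654 bp lay at 115939740 to 115940393. The nearest peak before the window had its midpoint 246 kb away from it, and the nearest after it 32.1 kb away.

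**Figure D1:**
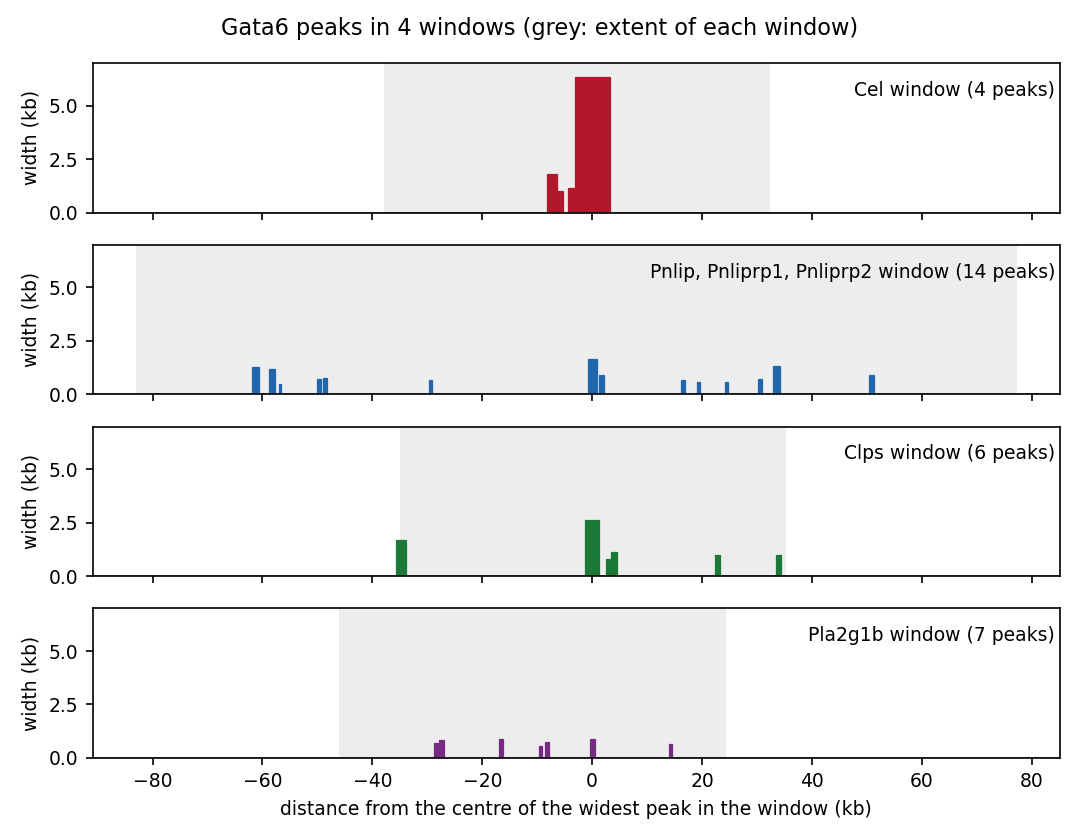
Gata6 peaks drawn to scale in the 4 windows, with distance from the centre of the widest peak of each window in kb on the x axis and peak width in kb on the y axis. Each bar is 1 peak and the grey area is the window. The 4 Cel peaks form a block of 11.4 kb, whereas the 14 peaks of the Pnlip, Pnliprp1 and Pnliprp2 window are spread over 113 kb.

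The number of peaks at each locus was set against all full, non-overlapping windows of the same size on the 19 autosomes and X. The median window of either size was empty. Among 37690 windows of 70 kb, 14.1% held at least 1 peak, and among 16483 windows of 160 kb, 25.4% did. The 4 Cel peaks were matched or exceeded in 186 windows of 70 kb, or 0.493%. That count rests on peaks as given, since with edges within 2 kb merged Cel held 1 region, a count reached by 14.1% of windows. The 6 Clps peaks were matched or exceeded in 35 windows (0.0929%) and the 7 Pla2g1b peaks in 12 windows (0.0318%). The largest number in any 70 kb window was 11. The 14 peaks of the lipase window were reached in 2 windows of 160 kb (0.0121%), of which 1 was this locus itself and the other held 16 peaks. In density, the 4 windows ran from 57.1 peaks per Mb at Cel through 85.7 at Clps and 87.5 at Pnlip, Pnliprp1 and Pnliprp2 to 100 at Pla2g1b, 19.5 to 34.1 times the mean of 2.93 per Mb. The windows were placed around genes with peaks, whereas the genome windows were placed without regard to peaks or genes, so these shares describe how rare such counts were in the list and do not test the loci.

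**Figure D2:**
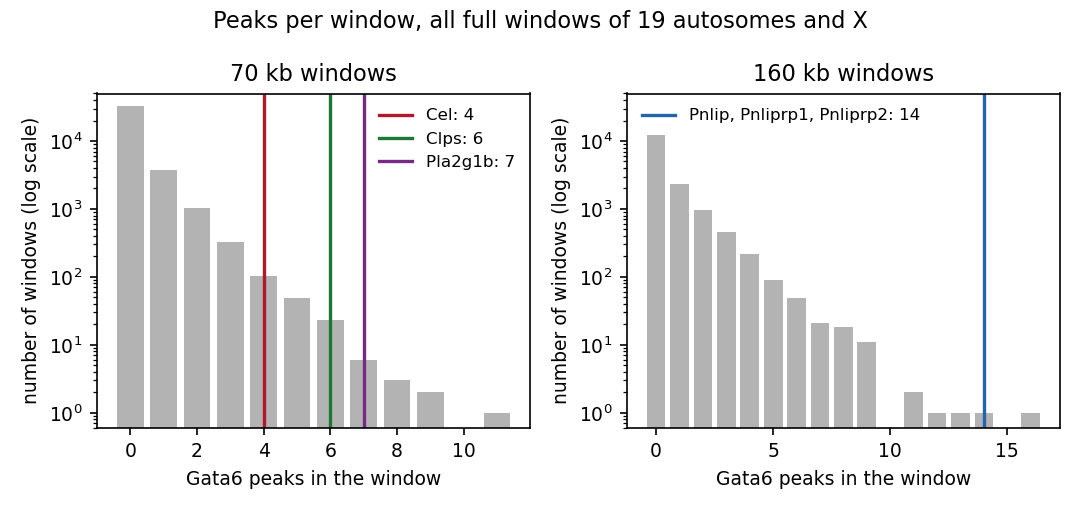
Number of full windows of 70 kb (left) and 160 kb (right) by the number of Gata6 peaks they hold, on a log scale, over 19 autosomes and X. Coloured lines mark the counts of the 4 loci, 4 at Cel, 6 at Clps, 7 at Pla2g1b and 14 at Pnlip, Pnliprp1 and Pnliprp2, which lie in the sparse upper tail.

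By covered bases the order of the loci of 70 kb was the reverse of that by peak number. Peaks covered 10348 bp (14.8%) of the Cel window, 7374 bp (10.5%) of the Clps window and 5220 bp (7.46%) of the Pla2g1b window, against a mean of 167 bp in windows of this size. At least as many bases were covered in 0.00796% of windows for Cel, 0.0371% for Clps and 0.151% for Pla2g1b. The order by peak number held for the windows and peaks as given. With windows widened by 50 kb on both sides it was 7 peaks at Cel, 9 at Pla2g1b and 10 at Clps, and among peaks of at least 728 bp it was 3 at Pla2g1b, 4 at Cel and 6 at Clps. In the 160 kb lipase window 12384 bp (7.74%) were covered, and 0.0364% of windows of that size had as much. These were 6 windows, of which 1 was this locus itself. None of the windows with as much cover as Cel, Clps or Pla2g1b overlapped the locus in question.

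Peaks were widest at Cel by median. The median width was 1478 bp at Cel (n = 4 peaks), 1058.5 bp at Clps (n = 6), 755.5 bp at Pnlip, Pnliprp1 and Pnliprp2 (n = 14) and 719 bp at Pla2g1b (n = 7), beside 728 bp over the list, whose interquartile range was 533 to 996 bp. With edges within 2 kb merged, the lowest median was 811 bp in the lipase window, and that of Pla2g1b was 885 bp. As deposited, all 4 Cel peaks lay above the interquartile range, as did 3 of 6 at Clps, 4 of 14 in the lipase window and none at Pla2g1b. The ranges of Cel (1025 to 6367 bp) and Pla2g1b (576 to 885 bp) did not overlap, while those of Cel and Clps (798 to 2635 bp) did. Over all 31 members, 11 (35.5%) were wider than 1 kb, against 24.7% of the list. In the 70 kb windows of the list with at least 4 peaks, 36.9% of 886 peaks were wider than 1 kb, close to the share of the members. In those with at least 7 peaks, some of them denser than the Pla2g1b window, the median width was 1054 bp over 95 peaks, beside 719 bp at Pla2g1b.

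**Figure D3:**
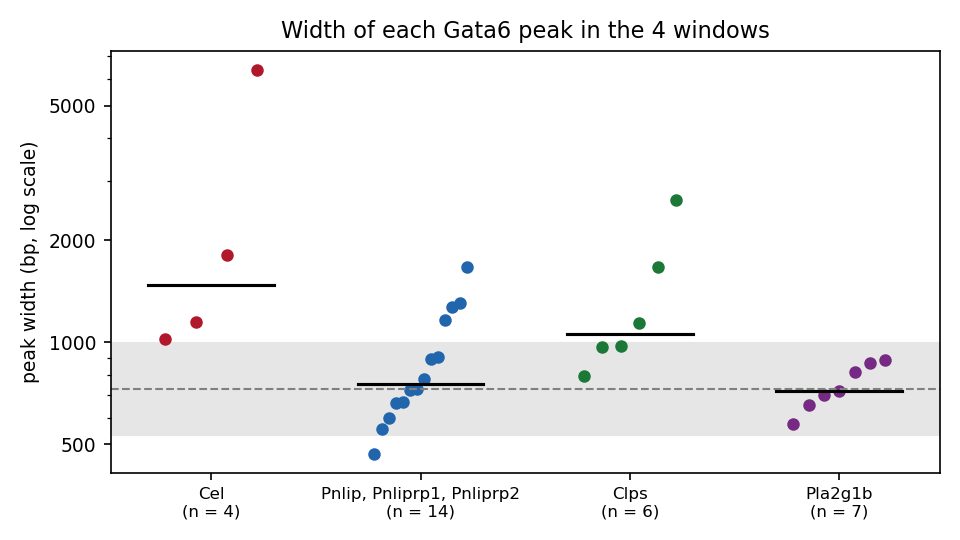
Width of each of the 31 member peaks in bp on a log scale, by window. Points are peaks, black bars are medians, the grey band is the interquartile range of all 7737 peaks (533 to 996 bp) and the dashed line is their median. All Cel peaks lie above the band and all Pla2g1b peaks within it.

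Spacing also differed between the loci. Neighbouring midpoints were a median of 1.92 kb apart at Cel, 5.05 kb in the lipase window, 7.68 kb at Pla2g1b and 11.1 kb at Clps. The Clps median was taken over 5 distances of 1.06 to 34.8 kb. The longest led to the 1669 bp peak, whose midpoint was 0.0205 kb inside the window. Without that peak the Clps median would fall below that of Pla2g1b, so their order depends on the window limit. Among the 27 neighbour distances inside the windows the median was 5.05 kb, against 79.1 kb over the list, although distances inside a window cannot exceed its size. Edges lay within 1 kb of each other for 9 of the 27 neighbour pairs (33.3%), against 4.84% of 7714 pairs in the list. These 9 were all 3 at Cel, 3 in the lipase window, 2 at Pla2g1b and 1 at Clps. Another midpoint within 10 kb was found for 25 of the 31 members (80.6%) and for 28.9% of the list, and of the 6 others 3 lay at Clps, 2 in the lipase window and 1 at Pla2g1b. Those at Clps were just past this limit, with the nearest midpoint 10.1 to 11.1 kb away. In the lipase window and at Pla2g1b it was 14.2 to 19.1 kb away. Of the 72 groups of 4 or more peaks in the list, 4 were at these loci. The windows were chosen with their peaks known and each held several, so closer neighbours than over the list follow in part from that choice. These contrasts with the list are descriptions, and spacing was not set against other dense windows except by span, below.

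Windows with the same number of peaks allowed the spread within a window to be compared. The midpoints of the 4 Cel peaks spanned 7.28 kb. In the 102 windows of 70 kb with exactly 4 peaks the median span was 36.6 kb, and in 3 of them it was as short as at Cel. The 6 Clps midpoints spanned 68.7 kb, almost the whole window, where 23 windows with 6 peaks had a median of 35.3 kb and a longest span of 68.0 kb. This span depends on where the window limits fell, since both outer midpoints lay close to them, 0.0205 and 1.29 kb inside. Without the 1669 bp peak the Clps midpoints spanned 33.9 kb, from the 2635 bp peak to the 977 bp peak. The 7 Pla2g1b midpoints spanned 42.6 kb, beside a median of 49.0 kb in 6 windows with 7 peaks.

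**Figure D4:**
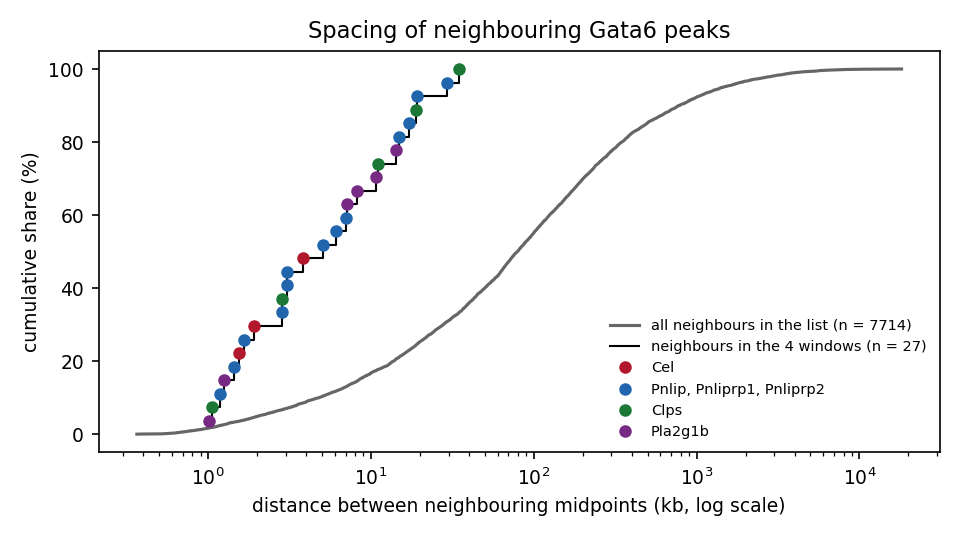
Cumulative share (%) of distances between neighbouring peak midpoints in kb on a log scale. The grey curve is the whole list (n = 7714, median 79.1 kb), and the black steps and coloured points are the 27 distances inside the 4 windows (median 5.05 kb), of which the 3 at Cel are at most 3.82 kb.

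The order of the lines in the list was also read, since it is not sorted by position throughout but consists of 94 runs, each sorted by chromosome and start. The sources used here do not say what sets this order. The widest Cel peak stood on line 51 and the 598 bp peak of the lipase window at 58827032 to 58827629 on line 49, both in the first run. The other 3 Cel peaks, which adjoin the widest, stood on lines 3909, 4637 and 7343. In the lipase window 10 of 14 peaks were in the first 3868 lines, and 3 of 6 were at Clps, 3 of 7 at Pla2g1b and 1 of 4 at Cel. Over all members this gave 17 of 31 (54.8%), beside 50.0% by construction for the list. The order was not one of width, as the 2635 bp peak of Clps stood on line 6682 and the 470 bp peak of the lipase window on line 147.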

How the data were processed

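The authors deposited a single list of peak positions (chromosome, start, end) without scores. The build is mm9, and CASAVA 1.8 and BWA 0.5.9-r16 are named without a role, per the submitters' processing notes. The name of the list carries the letters FDR (false discovery rate), without explanation. The peak caller, how its threshold was set and the handling of replicates were not given in the sources used here. Starts were taken as 0-based and printed with 1 added. Chromosome lengths and bands of mm9 came from circlize 0.4.16 (R 4.3.3). Counting used Python 3.11.15, with figures by matplotlib 3.10.9, and was tested on simulated data. Promoters were RefSeq's for GRCm38.p6. The named genes are the 6 of the rule. Members and lists were chosen with earlier results of these data known. Spans in windows with equal counts, regions joined within 1 kb and narrowed windows were added after the list was seen. The search of promoters for bare GATA letters and the widths in other dense windows were also outside the initial plan. No mm9 sequence or annotation and no protein table were used here, so motifs in peaks, positions against genes, other genes of lipid digestion and proteins were not analysed. As the list is not split by replicate, no value has an error.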

Additional observations from a re-analysis of the deposited data

How the results depend on the processing

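Of 68 alternative values over the 4 loci, 45 stayed within the set tolerance (1.5 times for counts, widths and distances, the exact 95% binomial interval for shares of windows) and 23 moved past it. Merging changed Cel the most. With edges within 500 bp merged it held 2 regions, and within 2 kb 1 region of 11368 bp, a count that 14.1% of windows reached. Merging within 2 kb raised the share to 0.263% for Clps and 0.0796% for Pla2g1b. Windows widened by 50 kb on both sides held 7 peaks at Cel and 10 at Clps, beside 9 at Pla2g1b. Keeping the 3873 peaks of at least 728 bp left 8 in the lipase window and 3 at Pla2g1b, with shares of 0.17% for Cel, 0.0607% for the lipase window, 0.0318% for Clps and 0.539% for Pla2g1b. On the locus's own chromosome the shares were 0.578% for Cel, 0.261% for the lipase window and 0% for Clps and Pla2g1b. At Clps and Pla2g1b the limits of the fixed windows divided the locus, and no other window reached its count. The 0.261% was 1 window of 383, the lipase locus itself, and no other window of chromosome 19 reached its count. For Cel, 1 of the 15 windows overlapped the locus. Among windows with at least 1 peak, the shares by covered bases were 0.0563% for Cel, 0.143% for the lipase window, 0.263% for Clps and 1.07% for Pla2g1b. Measured between edges, the median distance at Cel was 0.126 kb. The motif alternatives in peaks were not run for lack of mm9 sequence, and leaving out a library was not possible. No paired analysis was possible because the deposited positions are not split by sample. Unknown depth leaves the number of weaker sites at these loci unmeasured.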
